A study of Mus musculus with 10 samples.

Results

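Transcripts of 10 genes that take up, store, export and sense iron were measured in hematopoietic stem cells (HSCs) of *Cited2* CTL and *Cited2* CKO mice. They are the transferrin receptors *Tfr2* and *Tfrc*, *Hfe*, the reductase *Steap3*, the transporters *Slc11a2* and *Slc40a1*, the ferritin subunits *Fth1* and *Ftl1*, and the iron-regulatory genes *Aco1* and *Ireb2*. The set was drawn up by function around *Tfr2*, which was chosen by its measured CPM and genotype difference in these same libraries. The genotype differences of all 10 genes are therefore given as a description, with no p-value for any single gene. All 10 were found by symbol among the 26146 genes of the count table, and all 10 passed the filter on low counts.

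Bulk polyA RNA-seq was performed on sorted LSK cells that were CD48- and CD150+, with 1 library per mouse from 5 *Cited2* CTL and 5 *Cited2* CKO animals (C57BL/6J, 8 to 12 weeks of age). All 10 mice carried *Cited2* fl/fl alleles, so the controls, labelled wildtype, were floxed mice without Cre. *Cited2* CKO mice (*Cited2* fl/fl;*Vav-iCre*, labelled Cited2 KO) carried in addition a Cre recombinase driven by *Vav* regulatory sequence, which is active across the hematopoietic lineages, so deletion was neither timed nor limited to the sorted cells. CITED2 is a transcriptional co-regulator that binds the coactivators CBP and p300.

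Cells take up iron mostly as iron-loaded transferrin, the cargo of transferrin receptor 1 (TFRC). In the endosome STEAP3 reduces the iron and SLC11A2 (DMT1) carries it into the cytosol, where it is used for heme and iron-sulfur clusters or stored in ferritin, and SLC40A1 (ferroportin) is the only known exporter. The iron regulatory proteins ACO1 (IRP1) and IREB2 (IRP2) bind iron-responsive elements, short hairpins in mRNAs, when iron is scarce. Bound in a 5′ untranslated region they block translation, and bound in the 3′ untranslated region of *Tfrc* they stabilise the mRNA. TFR2 and HFE are known as sensors of transferrin iron in the liver, and TFR2 is also found in the erythroid lineage as a partner of the erythropoietin receptor.

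Matches to a strict pattern of the iron-responsive element are shown for the genes of the set in which it was found. The search does not separate mRNAs that the iron regulatory proteins bind from mRNAs that they do not. GENCODE M21 transcripts (GRCm38) were searched on the transcript strand for a bulged C, 5 bases, the loop CAGTGN with a last base other than G, and 5 bases pairing with the first 5 (G-T pairs allowed), with at least 3 of 5 pairs in the stem below the bulge. Capitals mark the bulged C and the loop, and each sequence is written 5′ to 3′ as in the mRNA with T for U.
Fth1, 5′ UTR, chr19:9982733-9982759, plus strand: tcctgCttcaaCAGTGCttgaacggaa
Ftl1, 5′ UTR, chr7:45459780-45459806, minus strand: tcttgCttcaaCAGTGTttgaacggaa
Slc40a1, 5′ UTR, chr1:45925466-45925492, minus strand: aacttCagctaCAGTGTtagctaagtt
Tfrc, 3′ UTR, chr16:32631220-32631246, plus strand: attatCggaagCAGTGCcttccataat
Tfrc, 3′ UTR, chr16:32631599-32631625, plus strand: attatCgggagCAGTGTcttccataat
Tfrc, 3′ UTR, chr16:32631664-32631690, plus strand: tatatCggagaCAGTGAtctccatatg
Tfrc, 3′ UTR, chr16:32631711-32631737, plus strand: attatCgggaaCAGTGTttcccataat
The motif was found in 4 of the 10 genes, with 1 element each in *Fth1*, *Ftl1* and *Slc40a1* and 4 in *Tfrc*. It was found in the 5′ UTR of 8 (0.0366%) and the 3′ UTR of 23 (0.105%) of 21875 protein-coding genes, and in either UTR of 31 (0.142%). In the coding sequence it was found in 34 genes (0.155%). *Tfr2*, *Hfe*, *Slc11a2*, *Aco1*, *Ireb2* and *Steap3* held no match in these windows, which says only that these letters were not found. Translation and protein were not measured.

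Each library held between 3058690 and 4548795 counts in all. Cell identity was compared with marker lists first. The 11 HSC genes, among them *Slamf1*, *Kit*, *Procr* and *Mecom*, summed to 2363 to 2678 CPM (read counts scaled to a common library total after TMM normalization) in *Cited2* CTL and 2138 to 2399 in *Cited2* CKO libraries. None of the marker genes tested was called by edgeR, which does not show that cell composition was equal. The macrophage list summed to 57.5 to 93.1 CPM in *Cited2* CTL and 77.8 to 137 CPM in *Cited2* CKO libraries. Every tested gene of that list had a log2 fold change above 0. The granulocyte list stood apart in CTL 5 (552.7 CPM) and CKO 5 (364 CPM), against 135 to 229 CPM in the other 8 libraries. The deleted gene went against 1 label. *Cited2* was at 101 to 222 CPM in *Cited2* CTL libraries, and at 3.803 to 8.30 CPM in 4 *Cited2* CKO libraries, but at 120.1 CPM in the library labelled CKO 3. That library was kept under its label, and the differences of the 10 genes are also given without it. For *Tfrc*, *Slc40a1*, *Slc11a2*, *Ftl1*, *Aco1* and *Ireb2* the log2 fold changes without it were 0.06, 0.08, -0.15, -0.13, -0.19 and 0.26, that of *Fth1* was 0.00015, and none was called.

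Of the 10 genes, 1 was called lower in *Cited2* CKO HSCs (*Tfr2*) and 0 were called higher by edgeR's quasi-likelihood test (adjusted p under 0.05 and a fold change above 20%). Of all 14165 tested genes, 0.106% were called lower and 0.120% higher. DESeq2 and limma-voom also called *Tfr2* alone of the 10. Over the whole table DESeq2 called 192 genes lower (1.39% of the genes it tested) and 146 higher. limma-voom called 15 lower and 13 higher. At an unadjusted p under 0.05 there were 2 lower and 1 higher, where 7.08% and 5.80% of all tested genes were. All *Cited2* CKO libraries lay below all *Cited2* CTL libraries for 2 of the 10 genes, *Tfr2* and *Steap3*, and above them for 0, where 1.98% and 1.35% of all tested genes did so. The median log2 fold change of the 10 genes was -0.06, and that of all tested genes 0.01. As the set was built around this contrast, nothing is read from these counts. In bulk RNA, fewer cells that express a gene and less RNA per cell cannot be told apart.

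**Figure D1:**
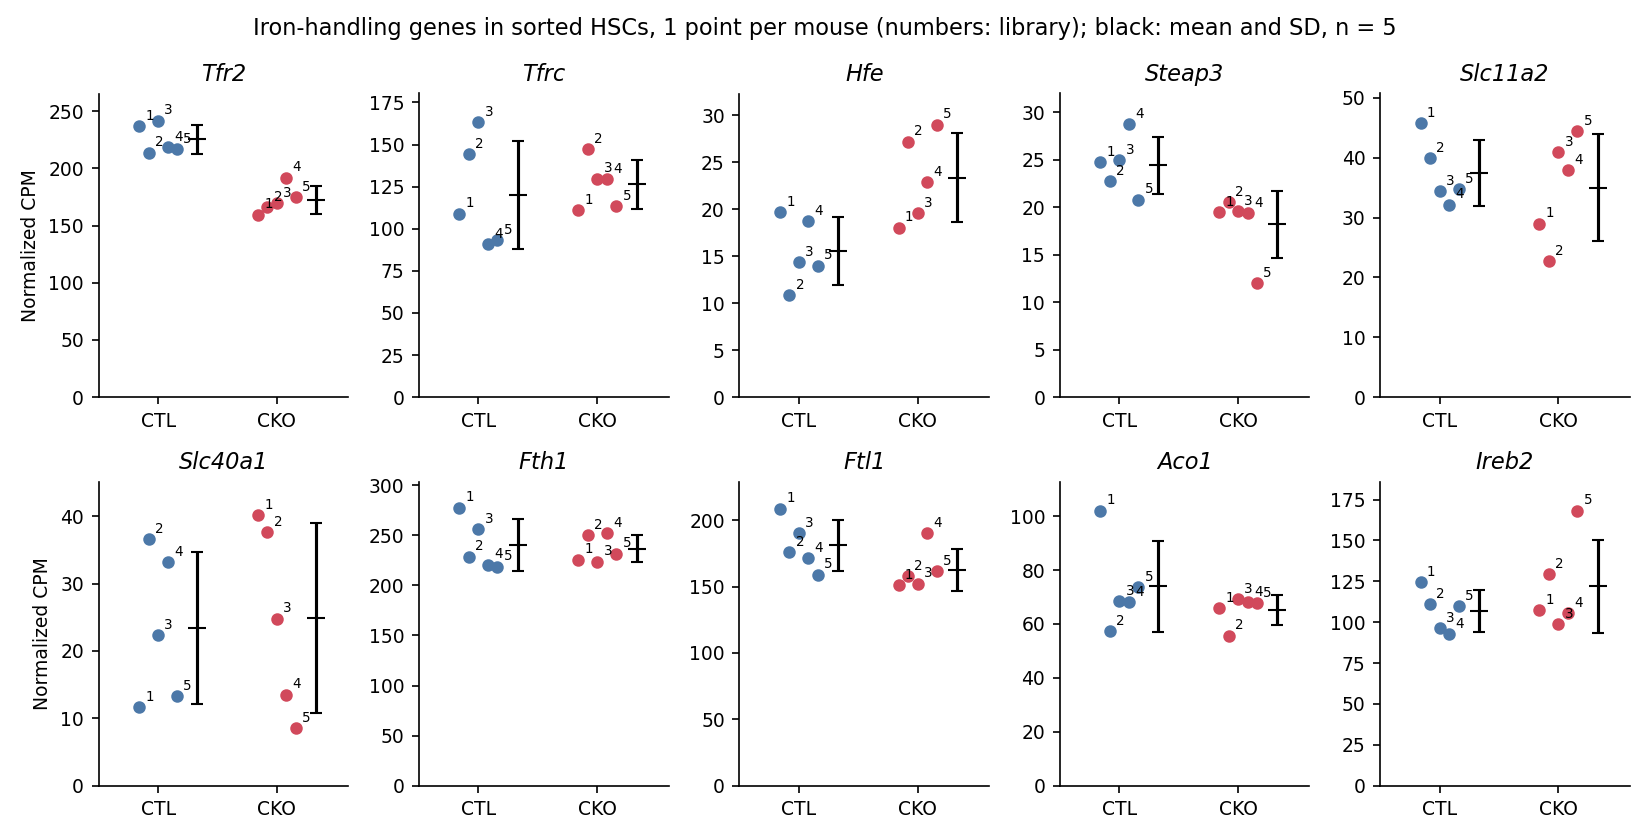
Normalized CPM (vertical axes, linear, from 0) of the 10 iron-handling genes in each library. Points are mice, with the library number beside them, in blue for Cited2 CTL and red for Cited2 CKO, and black marks give the mean and SD (n = 5). Tfr2 and Steap3 had no overlap between genotypes, and the other 8 genes overlapped.

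*Tfr2* encodes transferrin receptor 2 (chromosome 5, 137569840 to 137587481, plus strand). In *Cited2* CTL libraries 1 to 5 it was at 237, 214, 242, 218 and 217 CPM. Libraries 1 to 5 of *Cited2* CKO had 159.5, 166, 169.5, 192 and 175 CPM. The highest *Cited2* CKO library, CKO 4, was thus below the lowest *Cited2* CTL library, CTL 2, and the library labelled CKO 3 was in the middle of its group although it kept *Cited2*. The mean of *Cited2* CTL was 225 ± 12.8 CPM and that of *Cited2* CKO 172 ± 12.3 CPM (SD, n = 5 each), 23.5% lower. On the log2 scale the change was -0.39 (standard error 0.07).

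Each library held 653 to 990 *Tfr2* counts, for which counting error alone is 3.18% to 3.91%, and the coefficient of variation within a genotype was 5.68% for *Cited2* CTL and 7.12% for *Cited2* CKO libraries. The SD of its log2 CPM within genotypes, 0.09, was at percentile 4.47 of the 9968 genes whose mean log2 CPM reached 4. *Tfr2* therefore varied little between mice of 1 genotype, and its difference was small in size. A gene chosen by its genotype difference in the same libraries tends to have a small spread. The ranked genes were also not matched for level, so nothing is read from this percentile. The call was lost when any 1 library other than CKO 4 was left out, with log2 fold changes from -0.43 to -0.36 over all 10 omissions and -0.38 without the library labelled CKO 3. *Tfr2* transcripts have a GC content of 57.8%. With an offset that removes each library's trend with GC content and gene length, the log2 fold change was -0.18 (standard error 0.06) and was not called.

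**Figure D2:**
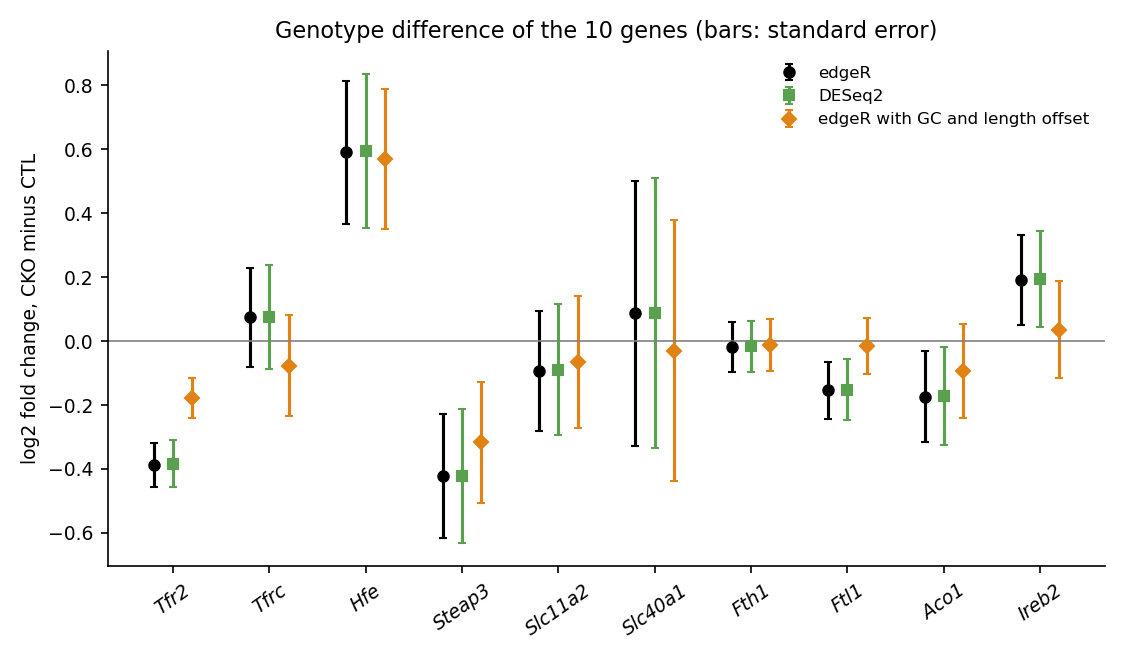
Log2 fold change, Cited2 CKO minus Cited2 CTL (vertical axis), of the 10 genes by edgeR (black), DESeq2 (green) and edgeR with the GC content and length offset (orange), with bars for 1 standard error. Tfr2 was at -0.39 by edgeR and -0.18 with the offset, while Hfe and Steap3 moved less and Tfrc, Slc40a1, Fth1 and Aco1 lay within or near 1 standard error of 0.

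*Steap3*, the ferrireductase of the transferrin endosome (chromosome 1, 120190757 to 120272705, minus strand), was the other gene without overlap. It was at 24.75, 22.7, 25.0, 28.8 and 20.8 CPM in *Cited2* CTL libraries 1 to 5 and at 19.5, 20.5, 19.6, 19.4 and 11.98 CPM in *Cited2* CKO libraries 1 to 5. CKO 1 to 4 lay close together just under CTL 5, and CKO 5 stood apart below them. A log2 fold change of -0.42 (standard error 0.19) was not called, and was -0.45 without the library labelled CKO 3. The size resembled that of *Tfr2*, but each library had only 52 to 118 counts, with a counting error of 9.21% to 13.9%. Leaving out CKO 5 gave -0.31. CTL 5 and CKO 5, the lowest libraries of their genotypes, were also those with the highest sums of granulocyte markers, and the part of granulocyte RNA in these values was not tested.

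*Tfrc* encodes the main transferrin receptor (chromosome 16, 32608920 to 32632794, plus strand). Its levels were 109, 144.5, 163, 90.7 and 93.4 CPM in *Cited2* CTL libraries and 111, 147, 129.8, 129.6 and 114 CPM in *Cited2* CKO libraries. The *Cited2* CTL libraries spanned the whole range of the *Cited2* CKO libraries. Mean levels were 120.2 ± 32.2 and 126 ± 14.6 CPM (SD, n = 5 each). The difference, 0.07 on the log2 scale (standard error 0.16), was not called. Its sign was negative in 4 of 19 alternative settings, among them the GC content and length offset (-0.08), so no direction is given.

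The balance of the receptors was computed per library from levels per length (RPKM, CPM divided by the gene length in kilobases). The *Tfr2* level was 3.31 ± 0.77 times that of *Tfrc* in *Cited2* CTL (range 2.48 to 4.05) and 2.31 ± 0.28 times in *Cited2* CKO HSCs (range 1.89 to 2.59). These ranges overlapped. *Tfr2* exceeded *Tfrc* in all 10 libraries. The ratios were computed without the GC content and length offset, and GC content was 57.8% for *Tfr2* and 39.8% for *Tfrc*. Log2 fold changes of *Tfr2* and *Tfrc* were -0.39 and 0.07 without the offset, and -0.18 and -0.08 with it. *Tfr2* was chosen by its genotype difference, which enters the ratio, so nothing is read from the lower ratio in *Cited2* CKO HSCs.

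*Hfe*, whose product binds TFRC and TFR2 (chromosome 13, 23702034 to 23710854, minus strand), was at 19.7, 10.9, 14.4, 18.8 and 14 CPM in *Cited2* CTL libraries, and at 18.1, 27.2, 19.6, 22.9 and 29.0 CPM in *Cited2* CKO libraries. CKO 2, CKO 4 and CKO 5 were above every *Cited2* CTL library, while CKO 1 and the library labelled CKO 3 were within their range. Mean levels were 15.6 ± 3.66 and 23.4 ± 4.72 CPM (SD, n = 5 each). The difference was 0.59 on the log2 scale (standard error 0.22), not called, and 0.65 without the library labelled CKO 3. Counts were few, 43 to 126 per library. HFE reaches the cell surface with beta-2 microglobulin, whose gene *B2m* was at 327 ± 44.7 and 322 ± 28.8 CPM.

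Ferritin, the iron store, is built of a heavy and a light chain. The heavy chain gene *Fth1* (chromosome 19, 9980598 to 9985098, plus strand) was at 278, 229, 256, 221 and 219 CPM in *Cited2* CTL libraries, against 226, 250.1, 224, 252.5 and 232 CPM in *Cited2* CKO libraries. All *Cited2* CKO libraries lay inside the *Cited2* CTL range. Its log2 fold change was -0.02 (standard error 0.08), not called, and it changed sign in 3 of 19 alternative settings, so no direction is given.

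*Ftl1*, the light chain gene (chromosome 7, 45457944 to 45459884, minus strand), was at 209, 176, 190.5, 171 and 159 CPM in *Cited2* CTL libraries, against 151, 158, 152, 190.2 and 161.5 CPM in *Cited2* CKO libraries. CKO 1, CKO 2 and the library labelled CKO 3 were below the lowest *Cited2* CTL library, but CKO 4 was level with CTL 3. The difference was -0.15 on the log2 scale (standard error 0.09), not called, and -0.02 with the GC content and length offset. Its GC content was 58.1%, close to that of *Tfr2*. *Ftl1* is also the least certain of the levels, because 728 of the 884 85-base stretches of its transcript (82.4%) recur in 8 other annotated genes, mostly processed copies. Of these only *Ftl1-ps2* was in the count table, with 1 to 11 counts per library, and how reads with several matches were counted is not given in the sources used here. For *Fth1* 1.16% of the stretches recur, in 1 gene.

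The 2 ferritin chains were also compared with each other. The *Fth1* level per length was 1.49 ± 0.04 times that of *Ftl1* in *Cited2* CTL HSCs, with a range from 1.44 to 1.54. In *Cited2* CKO HSCs it was 1.64 ± 0.10 times, with a range from 1.49 to 1.77. CKO 4 alone lay within the *Cited2* CTL range, and the other 4 *Cited2* CKO libraries, the library labelled CKO 3 among them, were above it. These ratios were computed without the GC content and length offset. With it the log2 fold changes were -0.02 for *Ftl1* and -0.01 for *Fth1*. Apart from this pair, only *Tfr2* with *Tfrc* and *Ireb2* with *Aco1* were compared as ratios.

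*Slc40a1*, the exporter (chromosome 1, 45908068 to 45926523, minus strand), varied most of the 10 genes. It was at 11.7, 36.6, 22.3, 33.15 and 13.35 CPM in *Cited2* CTL libraries. *Cited2* CKO libraries had 40.2, 37.6, 24.8, 13.5 and 8.53 CPM. Both genotypes thus held high and low libraries, the highest 4.71 times the lowest, and the SD of the log2 CPM within genotypes was at percentile 99.5 of genes. A log2 fold change of 0.09 (standard error 0.41) was not called and changed sign in 8 of 19 alternative settings, so no direction is given.

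Ferroportin is abundant in macrophages that recycle iron from red cells, so macrophage markers are set beside it. The 10 markers summed to 57.5, 82.6, 73.8, 93.1 and 74.6 CPM in *Cited2* CTL libraries 1 to 5 and to 122, 137, 77.8, 94.7 and 89.2 CPM in *Cited2* CKO libraries 1 to 5. The 2 highest *Slc40a1* libraries, CKO 1 and CKO 2, were also the highest in macrophage markers, and CTL 1 was low in both, whereas CKO 4 and CKO 5 had low *Slc40a1* with marker sums above those of CTL 2. All 10 markers were in the table and 9 were tested, led by *Cd68*, *Vcam1* and *Spic*, a factor of red pulp macrophages, while *Marco* had 0 to 12 counts and *Csf1r* 0 to 32. The part of macrophage RNA in the *Slc40a1* spread was not tested.

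**Figure D3:**
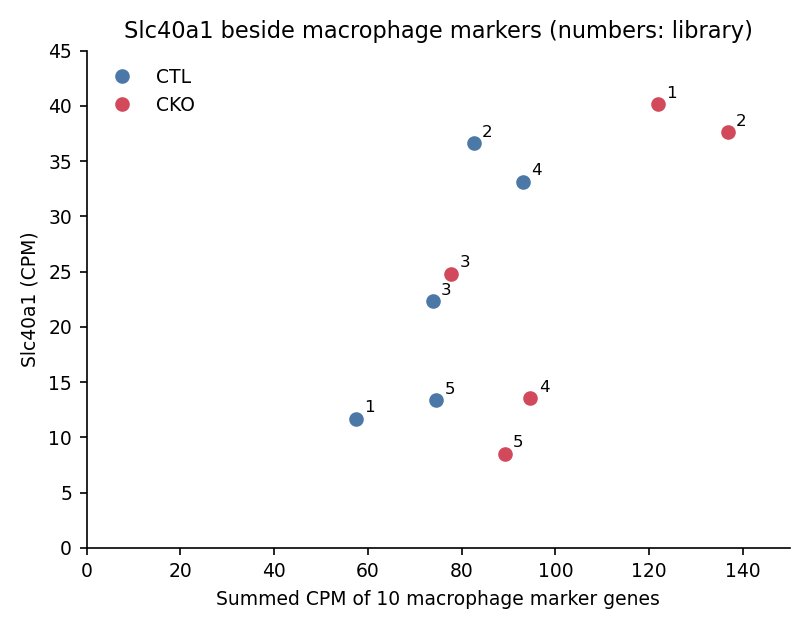
Slc40a1 (vertical axis, CPM) against the summed CPM of 10 macrophage marker genes (horizontal axis), 1 numbered point per library in blue for Cited2 CTL and red for Cited2 CKO. CKO 1 and CKO 2 were highest on both axes, and CKO 5 had the lowest Slc40a1 at 8.53 CPM with a marker sum of 89.2 CPM.

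*Slc11a2*, the endosomal iron transporter (chromosome 15, 100387898 to 100425072, minus strand), was at 45.8, 39.9, 34.4, 32.2 and 34.8 CPM in *Cited2* CTL libraries, against 29.0, 22.8, 40.9, 37.9 and 44.5 CPM in *Cited2* CKO libraries. CKO 1 and CKO 2, the libraries highest in *Slc40a1*, were the lowest here, and the other *Cited2* CKO libraries fell inside the *Cited2* CTL range. The log2 fold change was -0.09 (standard error 0.19), was not called and changed sign in 1 of 19 alternative settings. Its exons overlap those of *Gm5475* on the opposite strand, a gene with 0 to 12 counts, and the use of strand in counting is not given in the sources used here.

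The iron sensors followed. *Aco1* (chromosome 4, 40143081 to 40198338, plus strand) encodes IRP1, an aconitase when it holds an iron-sulfur cluster and an RNA-binding protein when it does not. It was at 102.0, 57.3, 68.5, 68.0 and 73.7 CPM in *Cited2* CTL libraries, against 65.8, 55.7, 69.25, 68.2 and 67.75 CPM in *Cited2* CKO libraries. CTL 1 stood above all others, and the remaining libraries shared 1 range. The log2 fold change was -0.17 (standard error 0.14), not called, and -0.04 without CTL 1.

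*Ireb2* (chromosome 9, 54863789 to 54912530, plus strand) encodes IRP2, which is degraded when iron is plentiful. Its *Cited2* CTL libraries had 125, 111, 96.4, 92.9 and 109.6 CPM and its *Cited2* CKO libraries 107, 129, 98.8, 105.5 and 168 CPM. CKO 5, the *Cited2* CKO library highest in granulocyte markers, was far above the rest, and CKO 2 was slightly above CTL 1. CTL 5, highest in those markers of all libraries, was within the range of the other *Cited2* CTL libraries. The log2 fold change was 0.19 (standard error 0.14), not called, 0.04 without CKO 5 and 0.04 with the GC content and length offset. *Ireb2* per length was 1.10 ± 0.20 times *Aco1* in *Cited2* CTL and 1.40 ± 0.36 times in *Cited2* CKO HSCs, so transcripts of both sensors were present at similar levels. This ratio was also computed without the offset, with which *Aco1* had a log2 fold change of -0.10.

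Levels between genes were compared as RPKM, computed with the deposited gene lengths, in *Cited2* CTL HSCs. *Fth1* led at 277.5 ± 29.5 RPKM (SD, n = 5 for each gene), followed by *Ftl1* at 187 ± 19.7 and *Tfr2* at 77.0 ± 4.38, and the ranges of these genes overlapped neither each other nor the next. *Tfr2* was at percentile 90.8 of all tested genes by this level. *Tfrc* had 24.5 ± 6.55, *Ireb2* 18.4 ± 2.19 and *Aco1* 17.1 ± 3.89 RPKM, with overlapping ranges between neighbours. All 3 were above *Hfe* (9.03 ± 2.12), *Steap3* (7.68 ± 0.94), *Slc40a1* (6.93 ± 3.34) and *Slc11a2* (6.64 ± 0.97 RPKM), whose ranges overlapped from each to the next. In HSCs the receptor best known from liver and erythroid cells thus had the higher transcript level of the pair. The erythroid list summed to 534.7 to 615.6 CPM in *Cited2* CTL libraries, against 520.5 to 668.8 CPM in *Cited2* CKO libraries, most of it *Car2*, a gene HSCs also express. *Aqp1* had 157 to 332 counts per library, *Rhag* 35 to 127, *Klf1* 32 to 81 and *Car1* 6 to 206, while *Hba-a1* had 0 to 8 and *Slc4a1* 0 to 15. The erythropoietin receptor gene *Epor* was at 25.69 and 25.72 CPM.

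**Figure D4:**
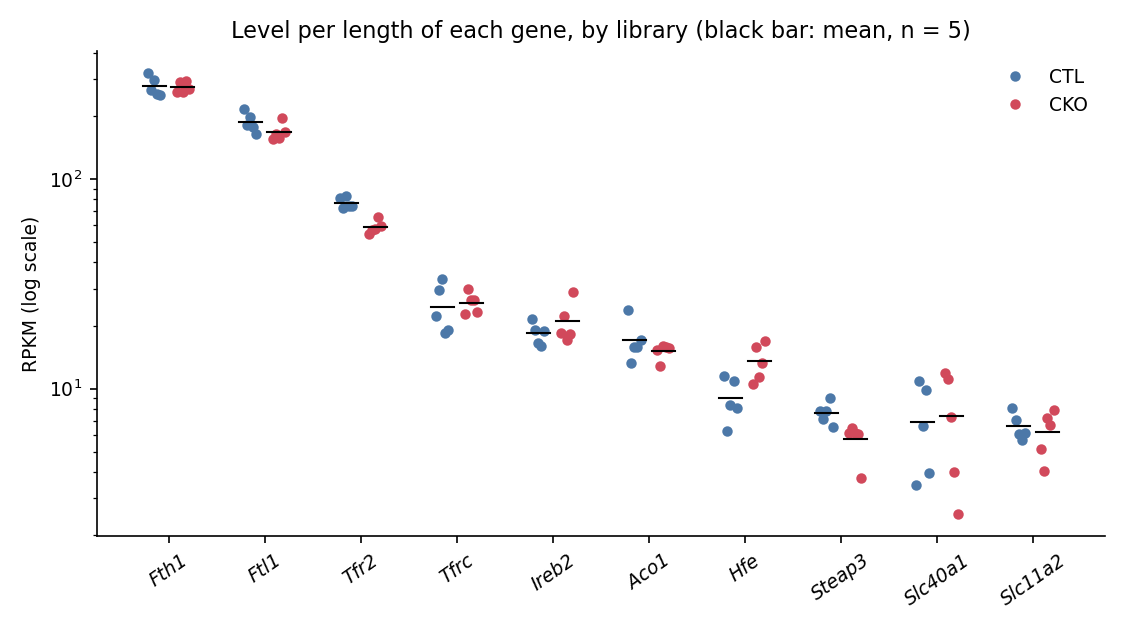
Level per length (RPKM, vertical log axis) of the 10 genes ordered by their Cited2 CTL mean, with 1 point per library in blue for Cited2 CTL and red for Cited2 CKO and a black bar at the mean (n = 5). Fth1, Ftl1 and Tfr2 stood apart at 277.5, 187 and 77.0 RPKM, and the Cited2 CTL means of the 4 lowest genes lay between 6.64 and 9.03 RPKM.

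*Tfr2*, *Fth1* and *Ftl1* deviated together between mice of 1 genotype. Among all pairs of genes of the set, their 3 pairs had the highest correlations within genotypes (r = 0.87, 0.87 and 0.70). The lowest were those of *Ireb2* with *Steap3* (r = -0.77) and *Slc40a1* with *Slc11a2* (r = -0.69). As the extremes of all these pairs, they are given as a description. CTL 1, CTL 3 and CKO 4, the libraries with the fewest counts (3058690, 3381357 and 3500215), were above their genotype means for *Tfr2*, *Fth1* and *Ftl1*. For *Tfr2* they were 5.04%, 7.21% and 11.4% above, and every other library except CKO 5 (1.44%) was below its genotype mean. For *Fth1* the same libraries were 15.5%, 6.44% and 6.63% above, and for *Ftl1* 15.2%, 5.19% and 17%. For *Fth1* CKO 2, with 4148213 counts, was also above its genotype mean (5.62%). *Tfrc* did not share the pattern, with CTL 1 at -9.29% and CTL 3 at 35.8%. The part of library size in these deviations was not tested.

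**Figure D5:**
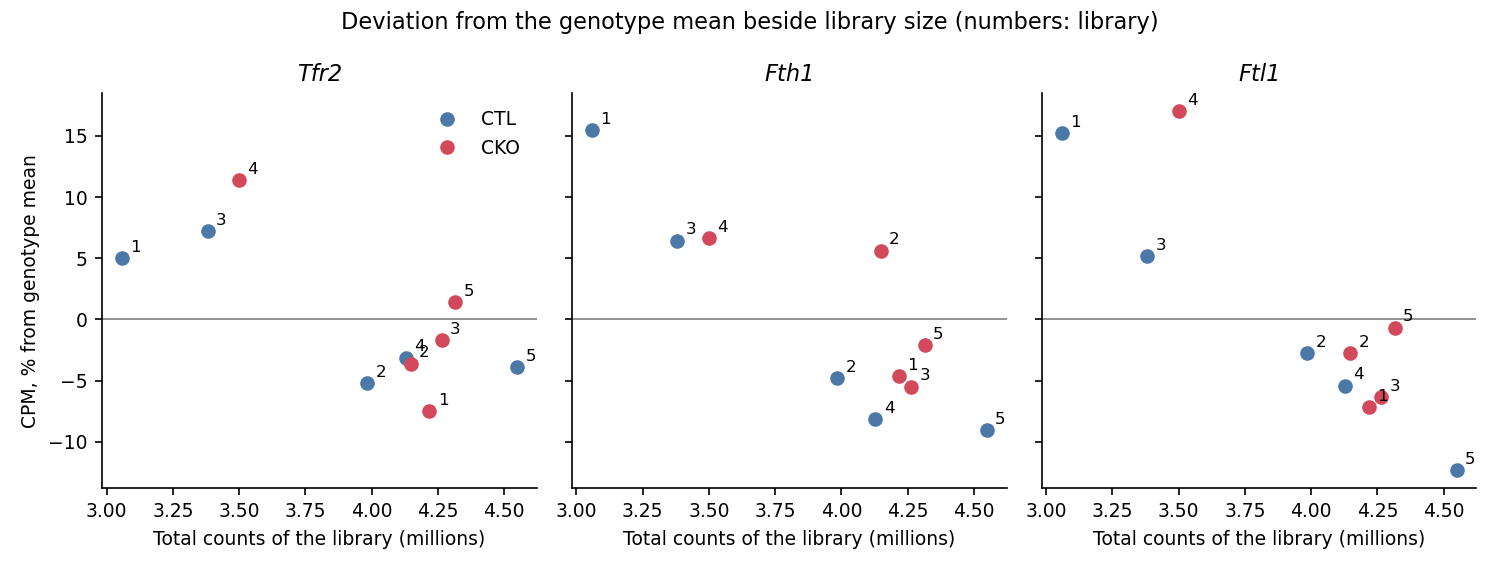
Deviation of CPM from the mean of the genotype (vertical axis, percent) against the total counts of the library (horizontal axis) for Tfr2, Fth1 and Ftl1, with 1 numbered point per library in blue for Cited2 CTL and red for Cited2 CKO. CTL 1, CTL 3 and CKO 4 have the lowest totals and lay above 0 in all 3 panels.

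The genes most like each receptor were sought among the 9968 genes whose mean log2 CPM reached 4, by Pearson's r of log2 CPM over the 10 libraries after subtracting genotype means. For *Tfr2* these were *Fdps*, an enzyme of the mevalonate pathway (r = 0.96), *Phgdh*, an enzyme of serine synthesis (0.93), and *Fpgs*, which adds glutamates to folate (0.93). For *Tfrc* they were the ubiquitin ligase gene *Arih2* (0.90), the helicase gene *Rtel1* (0.88) and *Gpatch1* (0.87). These are the highest of 9968 values each, over libraries that share depth and preparation, and are given as a description.

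As *Tfrc* is known to be high in dividing cells, its level was related across the 10 libraries to the mean z-score of 18 cycling genes such as *Mki67*, *Top2a* and *Ccnb1*, as were the other 9 genes. For *Tfrc*, Pearson's r was 0.14 (two-sided permutation test, p = 0.691) and Spearman's rho 0.24 (permutation p = 0.514), and r was 0.00 without CKO 1 and CKO 4, the libraries farthest from the median score. *Tfr2* had r = -0.27 (permutation p = 0.444) and rho = -0.32 (permutation p = 0.368). Its r was -0.90 without those libraries and 0.34 after subtracting genotype means, so it rested on which libraries entered and on the genotype difference. The cycling score was -0.59 to 0.19 in *Cited2* CTL libraries. It was 0.30 to 0.85 in CKO 2 to CKO 5 and -0.97 in CKO 1. The permutations did not keep genotypes apart, and *Tfr2* was chosen by its genotype difference, so nothing is read from its values. *Steap3* had the r farthest from 0, -0.44 (permutation p = 0.203), with rho = -0.56 (permutation p = 0.0975). Its r was -0.70 without CKO 1 and CKO 4 and -0.23 after subtracting genotype means. Without CKO 1 and CKO 4, *Ftl1* went from r = -0.15 to -0.94 and *Fth1* from -0.12 to -0.61, and after subtracting genotype means they were at 0.0904 and -0.10. Over the 10 relations every adjusted p was 0.730 for r and at least 0.858 for rho (Benjamini-Hochberg). Over all 10 libraries no relation passed the threshold, and the values of *Tfr2*, *Ftl1* and *Fth1* depended on whether those 2 libraries entered.

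The rest of iron and heme metabolism was followed in a fixed list of 103 other genes, 91 of them tested. edgeR called 0 of them in either direction, as did limma-voom, and DESeq2 called 2 lower and 0 higher, where 1.39% of the genes it tested were called lower. At an unadjusted p under 0.05 by edgeR, 8 were lower and 2 higher, where 7.08% and 5.80% of all tested genes were. The median log2 fold change of the list was -0.02, with 39 genes above and 52 below 0. All *Cited2* CKO libraries were below all *Cited2* CTL libraries for 2 of the 91 tested genes and above them for 0, where 1.98% and 1.35% of all tested genes did so.

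The 2 genes that DESeq2 called were also those without overlap. *Slc22a17*, a receptor for the siderophore-binding lipocalin 2, had 43.2 ± 7.75 CPM in *Cited2* CTL libraries, against 24.7 ± 5.21 CPM in *Cited2* CKO libraries (SD, n = 5 each). Its log2 fold change was -0.81, with a standard error of 0.19 and an adjusted p of 0.0948 by edgeR and 0.00801 by DESeq2. With the GC content and length offset it was -0.61 (adjusted p = 0.360, edgeR), and without the library labelled CKO 3 it was -0.68 (adjusted p = 0.104, edgeR). *Ppox*, an enzyme late in heme synthesis, had 70.3 ± 7.71 and 51.98 ± 6.81 CPM (SD, n = 5 each). Its log2 fold change was -0.44, with a standard error of 0.12 and an adjusted p of 0.154 by edgeR and 0.0442 by DESeq2. It was -0.34 with the offset (adjusted p = 0.453, edgeR) and -0.39 without the library labelled CKO 3 (adjusted p = 0.237, edgeR).

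Among 14 tested genes of uptake, 7 were above and 7 below 0, with a median log2 fold change of 0.01 and 0 called. *Mcoln1*, a lysosomal channel that releases iron, was at -0.38 (adjusted p = 0.270, edgeR). Of the 3 storage and chaperone genes tested, *Pcbp1*, which loads ferritin, was at -0.15 (adjusted p = 0.489, edgeR) and *Ncoa4*, the receptor for ferritin degradation, at -0.12 (adjusted p = 0.622, edgeR). With the GC content and length offset *Pcbp1* was at 0.03 and *Ncoa4* at -0.20. The ferroxidase genes of export were scarce. *Heph* was at 1.14 (adjusted p = 0.386, edgeR) with at most 12.4 CPM in any library, and *Hephl1* at 0.65 (adjusted p = 0.781, edgeR).

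In the hepcidin and BMP branch, which sets body iron from the liver, 10 of 15 genes were tested, 8 above and 2 below 0 (median 0.17). The genes of lowest p were the receptor genes *Bmpr2* at 0.62 and *Acvr1* at 0.78 (adjusted p = 0.393 and 0.533, edgeR). Among the 9 genes of iron regulatory protein control and other IRE-bearing mRNAs, 5 were above and 4 below 0 (median 0.04). *Fbxl5*, which marks IRP2 for degradation when iron is plentiful, was at 0.15 (adjusted p = 0.528, edgeR). *Pfn2* and *Cdc14a* were at 1.34 and -0.23 (adjusted p = 0.318 and 0.447, edgeR). *Epas1*, which encodes HIF-2alpha, had at most 8.98 CPM in any library and was at 0.21 (adjusted p = 0.911, edgeR).

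The 31 mitochondrial iron and iron-sulfur cluster genes were all tested, with 10 above and 21 below 0, a median log2 fold change of -0.10 (-0.04 with the GC content and length offset) and 0 called. *Abcb8* was at -0.38 and *Ciao1*, of the cytosolic cluster machinery, at -0.22 (adjusted p = 0.230 and 0.343, edgeR). Of the 13 heme synthesis genes, 2 were above and 11 below 0, with a median of -0.14 (-0.06 with the offset) and 0 called. Beside *Ppox*, *Abcb6*, which moves porphyrins, was at -0.62 (adjusted p = 0.371, edgeR). *Alas1*, the first enzyme of the path outside the erythroid lineage, was at -0.15 (adjusted p = 0.780, edgeR). In heme handling 4 of the 8 genes tested were above 0 (median 0.02). The heme transporter gene *Slc48a1* was at -0.19 (adjusted p = 0.245, edgeR), *Blvrb* at -0.23 (adjusted p = 0.557, edgeR), and the heme oxygenase gene *Hmox1* at 0.06 (adjusted p = 0.951, edgeR).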

How the data were processed

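The authors aligned single-ended reads of 85 bases to GRCm38 (mm10) with HISAT2, counted reads per gene with Rsubread, and deposited raw counts per gene symbol beside gene lengths. The annotation, the use of strand and the treatment of reads with several matches are not given in the sources used here. Replicates were not pooled.

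Genotypes were compared with edgeR 4.0.16 in R 4.3.3 (filterByExpr, TMM, robust quasi-likelihood F test, Benjamini-Hochberg adjustment over all 14165 tested genes, adjusted p under 0.05 and fold change above 20%). Log2 CPM used a prior count of 2, and RPKM used the deposited lengths and TMM library sizes. The common biological coefficient of variation was 25.3%. Alternatives were DESeq2 1.42.0 (Wald test, the test used in the study), its size factors, no filter, at least 10 counts in every library, voom of limma 3.58.1, a block for the replicate number, a loess offset for GC content and gene length (span 50%, 13895 genes with an annotation), that offset with the block, *Xist* as a covariate, and each library left out. The offset can also remove a genotype effect that follows GC content. The GC offset was fitted on the longest GENCODE M21 transcript of each gene. Correlations used permutation tests with 100000 resamples (scipy 1.17.1). The scripts were tested on simulated data, and no 2 of the 45 library pairs had counts within sampling noise of each other.

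The 10 genes and the lists were chosen with earlier results of these data known. Named outside the 10 were *Cited2*, listed genes that edgeR or DESeq2 called, the 2 tested genes of smallest p in each part of the iron list, *Ncoa4*, *Fbxl5*, *Alas1*, *Hmox1* and *Epas1*, and for each receptor the 3 genes most like it. *B2m*, *Epor* and the marker genes named were picked after their values were seen.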

Additional observations from a re-analysis of the deposited data

Results flagged for a closer look

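In 22 groups of 5 libraries (the 10 genes and *Cited2* in each genotype), a library was marked when its gap to the nearest other library exceeded 0.71 of the range of the group, Dixon's 95% critical value. Chance marks about 1 group in 20, and 4 were marked. In *Cited2* CKO HSCs these were *Ftl1* in CKO 4 (190.2 CPM, above the rest), *Aco1* in CKO 2 (55.66 CPM, below the rest) and *Steap3* in CKO 5 (11.98 CPM, below the rest). The fourth was *Cited2* in the library labelled CKO 3 (120.1 CPM, above the rest). No group of *Cited2* CTL libraries was marked.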

How the results depend on the processing

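Over the whole table edgeR called 17 genes higher and 15 lower. These counts were 146 and 192 with DESeq2, 6 and 3 with the GC content and length offset, and from 5 to 27 and from 3 to 18 when each library was left out, with 27 higher without the library labelled CKO 3. The 1 call among the 10 genes became 0 with the offset and 0 to 1 without single libraries. The iron list's 0 lower calls became 2 with DESeq2. The cause of these changes was not tested.

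The shared numbers of the libraries were examined as pairs. Deviations of same-numbered libraries correlated at 0.01, -0.09, 0.21, 0.00 and 0.19, not all above 0.1. The main fit used no pairs. For number 5 the value was above those with other numbers (at most 0.03), unlike for numbers 1 to 4. A batch shared by some numbers was not tested. With the replicate block 9 genes were lower over the table and 0 of the 10 genes were called. With the offset and the replicate block 8 were higher, 2 lower and 0 of the 10 were called.

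By CPM without length the ranks of *Tfr2*, *Ftl1*, *Slc11a2* and *Hfe* were 2, 3, 7 and 10. Correlations with cycling genes, none past the threshold, changed sign for *Tfr2* (0.34) and *Ftl1* (0.0904) after subtracting genotype means and for *Slc11a2* (-0.0857) with summed CPM. Without single libraries r ran from -0.80 (without CKO 1) to -0.14 for *Tfr2*, -0.34 to 0.19 for *Fth1*, -0.53 to 0.12 for *Ftl1*, -0.43 to 0.0493 for *Aco1*, -0.0639 to 0.44 for *Slc11a2* and -0.0043 to 0.32 for *Ireb2*. Of 190 refitted log2 fold changes of the 10 genes, 188 moved by less than the gene's SD of log2 CPM within genotypes. Both exceptions were *Tfr2* with the offset (-0.18). That limit is wide, and changes of sign fell within it. Of 19 settings, 8 changed the sign for *Slc40a1*, 4 for *Tfrc*, 3 for *Fth1* and 1 for *Slc11a2*. Depth limits *Hfe*, *Steap3* and *Slc40a1* most, with as few as 43, 52 and 35 counts in a library.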
